A study of Mus musculus with 3 samples.

Results

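The Rab small GTPases are the genes with a symbol made of Rab, a number and at most a letter and a further digit. This rule found 55 of the 14933 genes in the table of filtered cells, and it used no measured value. The values are UMIs (unique molecular identifiers, each marking 1 captured RNA molecule) from 10X Chromium 3′ single-cell libraries of tdTomato-positive cells, sorted by FACS from papain-dissociated medial prefrontal cortex of C57Bl6 mice at postnatal day 5. There was 1 library for each of 3 Tbr1 genotypes: wild-type (Rbp4cre::tdTomato), heterozygous (Tbr1f/+::Rbp4cre::tdTomato) and homozygous (Tbr1f/f::Rbp4cre::tdTomato), so all of them, controls included, carried the Rbp4 Cre driver and the tdTomato reporter. Rbp4-cre acts in layer 5 projection neurons from around birth, and the number of animals behind each library is not given in the sources used here. With 1 library per genotype there was no replicate check, no test between genotypes was possible and no p-value is given. Intervals in the text are 95% intervals that cover counting error only.

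Rab proteins are membrane-anchored switches. Bound to GTP, each recruits effectors such as motors and tethers to a particular membrane, and bound to GDP it is carried back into the cytosol. Exchange factors switch them on, GTPase-activating proteins switch them off, and prenylation gives them their lipid anchor. In neurons the Rab3 proteins sit on synaptic vesicles, while other members serve the secretory pathway, dendritic recycling endosomes and lysosomes. Tbr1 is a T-box transcription factor of early-born deep-layer cortical neurons.

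The 17396 filtered cells fell into 3 classes by the authors' own lists. Typical neuronal cells, which the authors kept for differential expression, numbered 1778 (wild-type), 5357 (heterozygous) and 3935 (homozygous), with 3670646, 10418228 and 6074494 UMIs. Atypical neuronal cells, which the authors set apart, numbered 304, 107 and 462, and cells outside the neuronal table numbered 2873, 1398 and 1182. Levels are CPM, the UMIs of a gene per 1000000 UMIs summed over all cells of a class and library. Values given in threes are for the wild-type, heterozygous and homozygous library, in that order. Because these are 3′ counts, they were not divided by gene length. A typical cell held a median of 6, 7 and 5 Rab UMIs, so the values below are sums over cells and not levels of single cells.

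The libraries differed in other ways that stand beside the results. In typical cells the 9 excitatory neuron markers, all detected in each library, summed to 2931, 3601 and 4253 CPM, most of it Nrgn and Cnih2. Nrgn was at 1692, 2062 and 2722 CPM and Cnih2 at 859, 1098 and 1097 CPM. Both were among the markers with which the paper identified neuronal clusters. Slc17a7 was at 38.4, 46.9 and 38.5 CPM and Neurod2 at 41.1, 39.5 and 44.0 CPM. The 9 astrocyte and radial glia markers summed to 10810, 9974 and 10974 CPM in the same cells, most of it Fabp7 and Apoe. Hemoglobin and other blood markers summed to 345, 44.6 and 85.8 CPM, highest in the wild-type library. Tbr1 itself stood at 27.5, 30.7 and 22.4 CPM, which is no check of the deletion because 3′ UMIs can come from transcripts that lack the floxed exons. Among 4955, 6862 and 5579 filtered cells, the wild-type library shared 47 barcodes with the heterozygous and 37 with the homozygous one, and the mutant libraries shared 58. The number that chance would give was not computed, so nothing is read from these. A smaller amount of a transcript per cell and fewer cells that hold it cannot be told apart in these sums.

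The stretches just upstream of a few members are shown because these members recur in the results below. Rab1a and Rab5a were higher in both mutant libraries. Rab28 had the largest ratios but entered the counts only through the libraries where it is high. Rab33a stood out in the oligodendrocyte-lineage-like cluster led by Mbp and Mag, and not in the one led by Pdgfra. Each stretch is the 250 bases before the RefSeq transcription start (GRCm38.p6), written 5′ to 3′ on the strand of the gene. Capitals mark the GC-box GGGCGG or its reverse complement CCGCCC. The windows lie at chr5:41708180-41708429 on the minus strand for Rab28, and on the plus strand at chr11:20201162-20201411 for Rab1a, chr17:53478984-53479233 for Rab5a and chrX:48519035-48519284 for Rab33a. None of these windows overlaps an annotated exon.
Rab28: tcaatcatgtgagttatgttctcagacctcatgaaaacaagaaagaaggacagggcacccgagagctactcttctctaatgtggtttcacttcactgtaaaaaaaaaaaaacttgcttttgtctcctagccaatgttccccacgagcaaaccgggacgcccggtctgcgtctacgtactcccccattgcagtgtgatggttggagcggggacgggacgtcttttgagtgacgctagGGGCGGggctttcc
Rab1a: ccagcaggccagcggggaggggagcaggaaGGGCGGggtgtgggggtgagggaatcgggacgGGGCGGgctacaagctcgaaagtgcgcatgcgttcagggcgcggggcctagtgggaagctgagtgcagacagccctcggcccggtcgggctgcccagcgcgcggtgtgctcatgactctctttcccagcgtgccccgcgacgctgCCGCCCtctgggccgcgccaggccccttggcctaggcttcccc
Rab5a: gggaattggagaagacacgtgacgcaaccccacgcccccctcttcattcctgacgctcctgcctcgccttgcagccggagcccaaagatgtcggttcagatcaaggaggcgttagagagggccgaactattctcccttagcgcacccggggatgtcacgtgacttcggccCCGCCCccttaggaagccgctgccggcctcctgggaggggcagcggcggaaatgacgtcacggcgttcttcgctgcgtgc
Rab33a: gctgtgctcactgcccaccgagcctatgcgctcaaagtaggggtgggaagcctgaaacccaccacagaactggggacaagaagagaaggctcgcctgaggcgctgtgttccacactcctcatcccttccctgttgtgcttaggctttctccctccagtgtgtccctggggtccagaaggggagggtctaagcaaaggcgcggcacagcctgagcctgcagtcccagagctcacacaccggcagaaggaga

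Of the 55 members, 45 had such a window, 57 windows in all. The GC-box was in 40 of the 57, or 70.2%, against 32.7% of the 32851 mouse windows of the same length, and Rab33a was among those without it. The TATA-box TATAAA was in 4 of the 57, or 7.02%, against 12.4%. The T-box letters GGTGTGA, searched on both strands like the others, were in 3 of the 57, or 5.26%, against 3.33% of all windows, and in none of the windows printed here. These are matches of letters in a short window and say nothing of binding.

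In typical cells the family made up 3127, 3740 and 3615 CPM. Rab3a, the main Rab of synaptic vesicles, was the highest member in each library, followed in the mean over libraries by Rab2a of the ER and Golgi, the recycling-endosome pair Rab11b and Rab11a, and Rab6a of the Golgi. These 5 members held 42.9% of the mean Rab CPM. The mean over the 3 libraries reached 20 CPM for 29 members, the ones among which genotype ratios are counted, and the other 26 were below it, from Rab34 at a mean of 18.0 CPM down to Rab20 and Rab32 at 0.0960 CPM each.

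**Figure D1:**
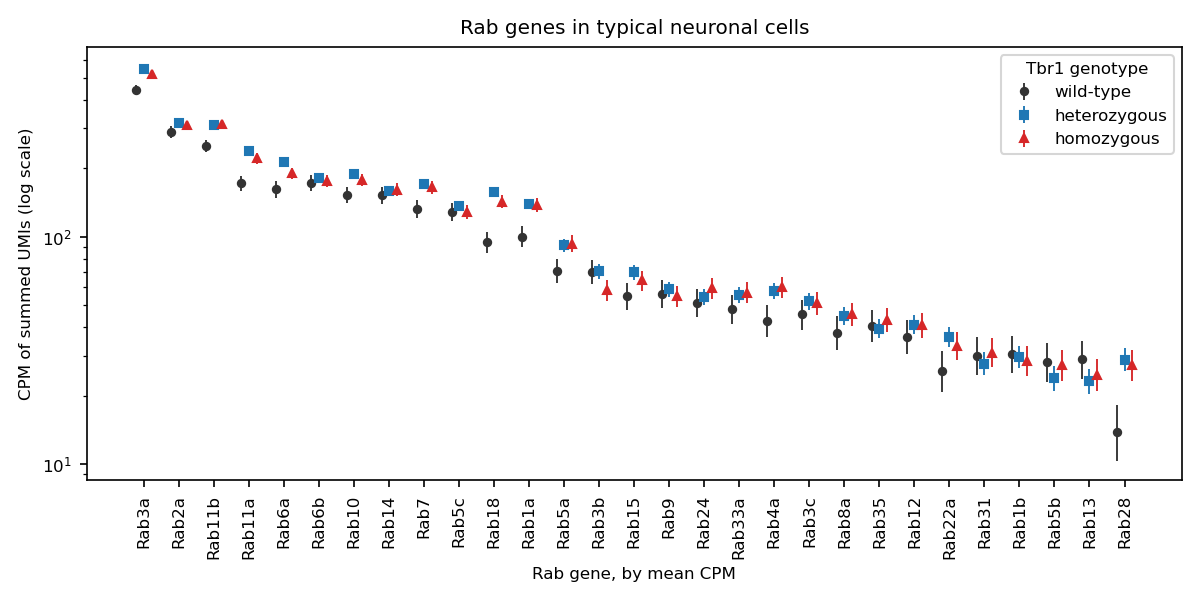
CPM (log axis) of the 29 Rab genes that averaged 20 CPM or more in typical neuronal cells, ordered by mean, for the wild-type, heterozygous and homozygous libraries, with 95% counting intervals. Rab3a, at the left, is highest at 443 to 546 CPM, and Rab28, at the right, is the member whose wild-type point, 13.9 CPM, is farthest below its mutant points.

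Among the vesicle members, Rab3a was at 443, 546 and 519 CPM. Its close paralogs were far lower, with Rab3b at 70.0, 70.5 and 58.3 CPM, Rab3c at 45.5, 52.0 and 50.9 CPM, and Rab3d at 17.2, 15.3 and 17.3 CPM. Rab3a was thus the only one of the 4 above 100 CPM, in every library. The coding sequences of these 4 genes were 74.4% to 78.0% identical in pairs, and no pair among the 55 members shared a 31-base word in the last 400 bases of their transcripts, the end that 3′ counts read.

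Other close relatives were uneven too. Rab1a, which acts between ER and Golgi, was at 100, 139 and 138 CPM against 30.5, 29.6 and 28.5 CPM for Rab1b. Rab5c led the early-endosome Rab5 genes with 129, 137 and 129 CPM, ahead of Rab5a with 70.8, 91.6 and 93.3 CPM and Rab5b with 28.1, 23.9 and 27.2 CPM. Rab6a and Rab6b of the Golgi were close to each other. They were at 162 (149 to 175) and 173 (160 to 187) CPM in the wild-type library, where the intervals overlap. In the heterozygous library Rab6a was the higher, at 213 (204 to 222) against 182 (174 to 190) CPM. Rab2a was above Rab11b in the wild-type library, at 289 and 251 CPM. In the homozygous library they were at 310 (296 to 325) and 314 (300 to 328) CPM, too close to be ordered. The lower relatives of other leading members stayed small, with Rab33b at 12.8, 14.4 and 14.98 CPM next to 47.9, 55.7 and 56.8 CPM for Rab33a, Rab2b at 9.54, 13.2 and 12.2 CPM, and Rab4b at 6.81, 6.43 and 6.09 CPM.

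At the low end, Rab20, Rab32 and Rab43 had 0 UMIs in typical wild-type cells, and Rab20, Rab32 and Rab37 had 0 in typical homozygous cells. A count of 0 allows up to 3 UMIs as a one-sided limit, which is 0.817 CPM in the wild-type and 0.494 CPM in the homozygous library, and the two-sided 95% intervals reach 1.005 and 0.607 CPM. In the heterozygous library, which had the most UMIs summed over typical cells, all 55 members had at least 1 UMI, and 5 had no more than 3.

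The first comparison asked how the family differed between the mutant libraries and wild-type in typical cells. Of the 29 members, 7 were more than 25% higher than wild-type in the homozygous library (24.1% of them, against 17.2% of all 4261 genes that averaged 20 CPM or more), and 0 were lower by the same factor, that is by more than 20% (against 8.50%). In the heterozygous library 10 were higher (34.5%, against 17.1%) and 0 lower (against 9.50%). The 7 were Rab28, Rab18, Rab4a, Rab1a, Rab5a, Rab11a and Rab22a, and they were past the fold in both mutant libraries, as 11.7% of all genes were, and 0 members were lower in both, as 5.68% of all genes were. Without Rab28, which reached 20 CPM only through the mutant libraries, the higher counts were 6 of 28 (21.4%) for homozygous, 9 of 28 (32.1%) for heterozygous and 6 of 28 for both. The heterozygous library added Rab15, Rab6a and the late-endosome member Rab7. Both ratios share the wild-type library, so a high or low wild-type value enters both. The median log2 ratio of the 29 members was 0.22 for homozygous over wild-type, with 23 above 0, and 0.22 for heterozygous over wild-type, with 24 above 0. Over all 4261 genes the medians were 0.08 and 0.06, with 2601 and 2505 above 0. With the empty-droplet profile subtracted, in a share set by hemoglobin transcripts (38.8%, 14.5% and 20.3% of the UMIs of typical cells), the Rab medians were 0.082 and 0.16 and those of all genes 0.05 and 0.02. A share of 38.8% of the 1902 UMIs in the median typical wild-type cell is above 500 UMIs, the upper bound of an empty droplet. The wild-type share may thus be too large, and all values with the profile subtracted carry that limit. When mean UMIs per cell were used instead of CPM, the homozygous median was −0.20 and the heterozygous one 0.13, where the median typical cell held 1902, 1743 and 1376 UMIs. That scaling shifts every gene of a library alike, and the medians of all genes were then −0.34 and −0.02.

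**Figure D2:**
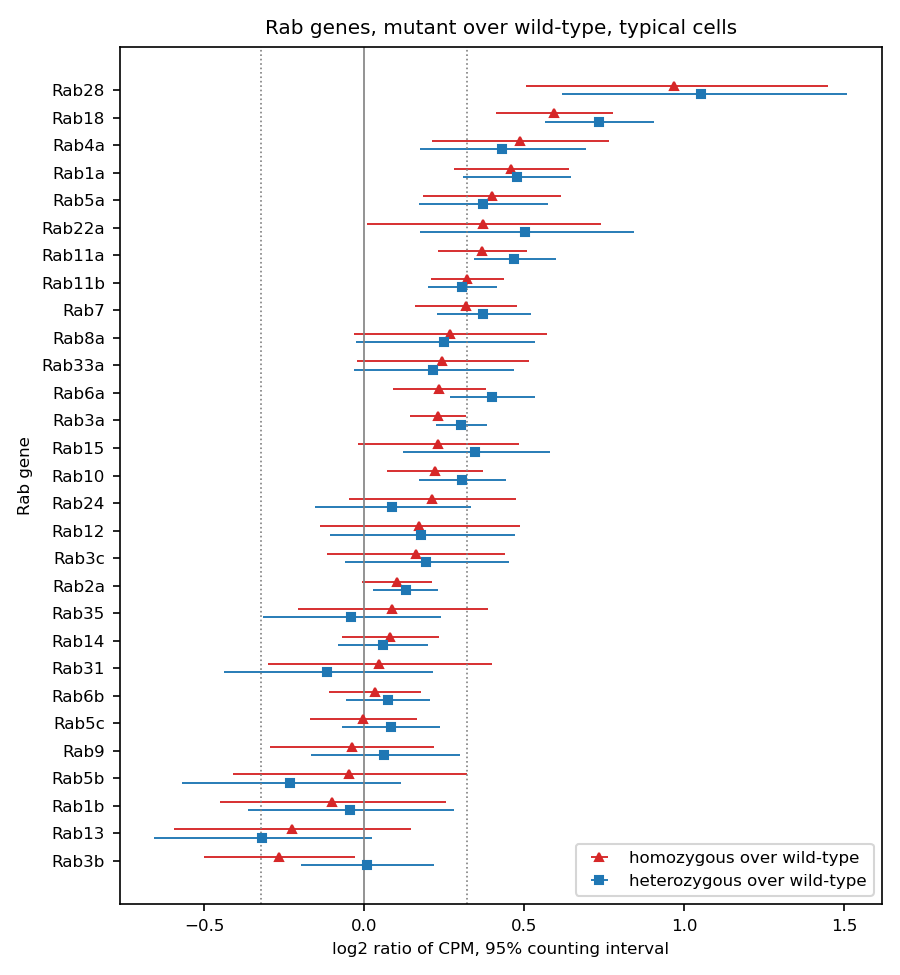
log2 ratio of CPM over wild-type in typical cells for the 29 Rab genes, homozygous (triangles) and heterozygous (squares), with 95% counting intervals; dotted lines mark 25% higher and the same factor lower. Rab28 and Rab18 lie farthest to the right in both libraries, and no gene lies past the left dotted line; on UMIs per cell, not plotted, the homozygous median was −0.20, against −0.34 for all genes.

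Rab28, a member linked to cilia and photoreceptors, had the largest log2 ratios. Its wild-type level is below 20 CPM, so it reached the mean of 20 CPM only through the mutant libraries where it is high. It had to differ in this direction, and the counts above are also given without it. It had 51, 300 and 165 UMIs, or 13.9, 28.8 and 27.2 CPM. The log2 ratio was 0.97 (interval 0.51 to 1.45) for homozygous and 1.05 (0.62 to 1.51) for heterozygous over wild-type. The mutant values were close to each other and their intervals lay clear of 0, and the wild-type level was the lowest of the 29 members.

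Rab18, which acts on the ER and lipid droplets, was at 94.5, 157 and 143 CPM. Its log2 ratios were 0.59 (0.41 to 0.78) and 0.73 (0.57 to 0.91) for homozygous and heterozygous. Rab28 and Rab18 were also the 2 members more than 1.5-fold higher in both libraries. By that fold 2.96% of all genes were higher and 1.95% lower in homozygous cells, and 3.59% and 2.39% in heterozygous cells, and nothing is read from the members' count because Rab28 is among them.

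Rab1a, with the values given above, had log2 ratios of 0.46 (0.28 to 0.64) and 0.48 (0.31 to 0.65), while its paralog Rab1b had −0.10 (−0.45 to 0.26) and −0.05 (−0.36 to 0.28). Rab5a, of early endosomes, had 0.40 (0.18 to 0.62) and 0.37 (0.17 to 0.57), while Rab5c was level with wild-type in homozygous cells (interval −0.17 to 0.17) and at 0.08 (−0.07 to 0.24) in heterozygous ones. Rab5b was at −0.05 in homozygous and −0.23 in heterozygous cells. In homozygous cells the intervals of Rab1a and Rab5a thus lay above 0, while those of Rab1b and Rab5c spanned 0. The differences between paralogs were not tested.

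Rab4a, of fast recycling from early endosomes, was at 42.8, 57.6 and 59.9 CPM. Its log2 ratios were 0.49 (0.21 to 0.77) and 0.43 (0.17 to 0.69). Rab22a, also an early-endosome member, was at 25.6, 36.3 and 33.1 CPM, with log2 ratios of 0.37 (0.01 to 0.74) and 0.50 (0.17 to 0.84). The lower bound for Rab22a in the homozygous library was thus close to 0, and on UMIs per cell Rab22a, Rab11a and Rab5a were at −0.050, −0.051 and −0.021 in homozygous cells, where the median of all genes was −0.34.

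Rab11a and Rab11b carry cargo through recycling endosomes, in neurons into dendritic spines. Rab11a was at 172, 238 and 222 CPM, with log2 ratios of 0.37 (0.23 to 0.51) and 0.47 (0.34 to 0.60). Rab11b was at 251, 310 and 314 CPM, with log2 ratios of 0.32 (0.21 to 0.44) and 0.31 (0.20 to 0.41). On UMIs per cell it was at −0.098 in homozygous cells, where the median of all genes was −0.34. Rab11b was the member just below the line of 25%, which is 0.32 on the log2 scale, in both libraries. Just above it lay Rab11a for homozygous and Rab15, at 0.35, for heterozygous over wild-type. The pair of Rab11 genes stood at 0.47 and 0.31 in heterozygous cells and at 0.37 and 0.32 in homozygous cells. Their intervals overlap in both libraries, and the change in the gap between libraries was not tested.

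Rab3a was higher in both mutant libraries by less than 25%, with log2 ratios of 0.23 (0.14 to 0.32) and 0.30 (0.22 to 0.38). With the empty-droplet profile subtracted they were 0.06 and 0.11, and on UMIs per cell −0.19 and 0.22. Rab3b was at −0.26 (−0.50 to −0.03) in the homozygous library and at 0.01 (−0.20 to 0.22) in the heterozygous one. Rab3c had 0.16 (−0.12 to 0.44) and 0.19 (−0.06 to 0.45), and Rab3d, below the minimum of 20 CPM, had 0.01 (−0.45 to 0.48) and −0.17 (−0.60 to 0.28). Of the 4 Rab3 genes, Rab3a and Rab3b thus had CPM intervals on opposite sides of 0 in the homozygous library. The intervals of Rab3c and Rab3d included 0 in both mutant libraries. Rab1a, Rab3a, Rab11a, Rab11b, Rab18, Rab28 and Rab3d are among the genes the study lists from these same libraries, so their ratios are no independent evidence of direction.

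Summed over role groups, the log2 ratio of homozygous over wild-type was 0.26 (0.20 to 0.33) for the 9 members of recycling endosomes and plasma membrane, 0.22 (0.16 to 0.28) for the 13 of ER and Golgi, 0.17 (0.09 to 0.25) for the 8 of secretory vesicles, 0.15 (0.07 to 0.23) for the 9 of early endosomes, 0.16 (0.04 to 0.28) for the 10 of late endosomes and lysosome-related organelles and 0.34 (0.15 to 0.53) for the 6 of cilia and other roles, which include Rab28. For heterozygous over wild-type the same sums were at 0.30, 0.28, 0.26, 0.15, 0.23 and 0.30. Some of these sums rested on 1 member. Without Rab3a, the other 7 secretory vesicle members summed to 147, 158 and 144 CPM, with log2 ratios of −0.03 (−0.18 to 0.13) and 0.11 (−0.03 to 0.25). Without Rab7, the other 9 late-endosome and lysosome-related members summed to 99.7, 100.3 and 94.0 CPM, with −0.09 (−0.28 to 0.11) and 0.01 (−0.16 to 0.18). Without Rab28, the 5 of cilia and other roles were at 0.19 (−0.02 to 0.40) and 0.11 (−0.08 to 0.31). All of these intervals include 0. In the other 3 groups, leaving out the highest member (Rab2a, Rab11b or Rab14) kept both intervals above 0. The whole family was at 0.21 (0.18 to 0.24) and 0.26 (0.23 to 0.29), although on UMIs per cell, where all genes had a median of −0.34, the homozygous sum was at −0.21.

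The mutant libraries differed less from each other. Of the 29 members, 0 were past 25% in either direction between homozygous and heterozygous, against 4.04% of all genes higher and 2.68% lower. The median of the 29 was −0.03. Intervals below 0 were seen for 5 members (17.2%, against 10.2% of all genes), led by Rab3b at −0.27 (−0.46 to −0.09), and above 0 for 0 members (against 14.6%).

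The same ratios were then taken in the other barcodes of each library. Empty droplets, here barcodes from 100 up to, but not reaching, 500 UMIs, hold free RNA from the whole suspension, and they held 14981358, 8516230 and 13693543 UMIs. In empty droplets the summed family was higher in the mutant libraries too, by log2 ratios of 0.25 (0.23 to 0.27) for homozygous and 0.35 (0.33 to 0.37) for heterozygous. In cells outside the neuronal table it was at 0.18 (0.14 to 0.21) and 0.21 (0.18 to 0.24). In atypical cells it was at 0.08 (−0.01 to 0.17) and 0.09 (−0.04 to 0.22). The atypical intervals reached past 0. Outside the table the secretory vesicle group was at 0.76 (0.66 to 0.85) and 0.92 (0.84 to 1.0), while in heterozygous cells the early-endosome group was at −0.09 (−0.16 to −0.02) and the late-endosome group at −0.13 (−0.22 to −0.03). Subtracting the empty-droplet profile from typical cells left the family sum at 0.15 and 0.18.

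By member, Rab11a had log2 ratios of 0.37 (homozygous) and 0.45 (heterozygous) in empty droplets and of 0.38 and 0.30 in cells outside the table, next to 0.37 and 0.47 in typical cells. Typical minus outside was −0.015 (−0.20 to 0.17) for homozygous and 0.17 (0.0047 to 0.34) for heterozygous, so the latter interval began close to 0. Rab5a had 0.48 and 0.50 in empty droplets and 0.36 and 0.42 outside. The members named here were picked by their ratios in typical cells, so lower ratios in other barcodes are partly set by that choice. Rab28 also passed the minimum only through the mutant libraries, so nothing is read from its difference. For Rab28 the difference of the log2 ratios, typical minus outside, was 0.67 (0.13 to 1.22) for homozygous and 1.0 (0.49 to 1.51) for heterozygous. For Rab18 it was 0.38 (0.14 to 0.63) and 0.43 (0.22 to 0.65). In empty droplets Rab28 had 0.51 and 0.59, and Rab18 0.43 and 0.66. In heterozygous cells Rab22a, at 0.50 in typical cells and −0.10 outside, and Rab1a, at 0.48 and 0.19, had differences of 0.61 (0.17 to 1.04) and 0.28 (0.07 to 0.49), while their homozygous ones, 0.28 (−0.20 to 0.77) and 0.23 (−0.01 to 0.46), had intervals that include 0. In the heterozygous library the interval of the difference lay above 0 for 9 of the 29 members (31.03%, against 27.9% of all genes) and below 0 for 6 (20.7%, against 21.9%). In the homozygous library it did so for 2 and 2 members, where 13.6% and 13.4% of all genes stood. Of the 29 members, Rab28 and Rab18 were the only ones whose difference had an interval above 0 in both mutant libraries, where 10.9% of all genes stood. As Rab28 passed the minimum only through the libraries where it is high, nothing is read from this count.

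**Figure D3:**
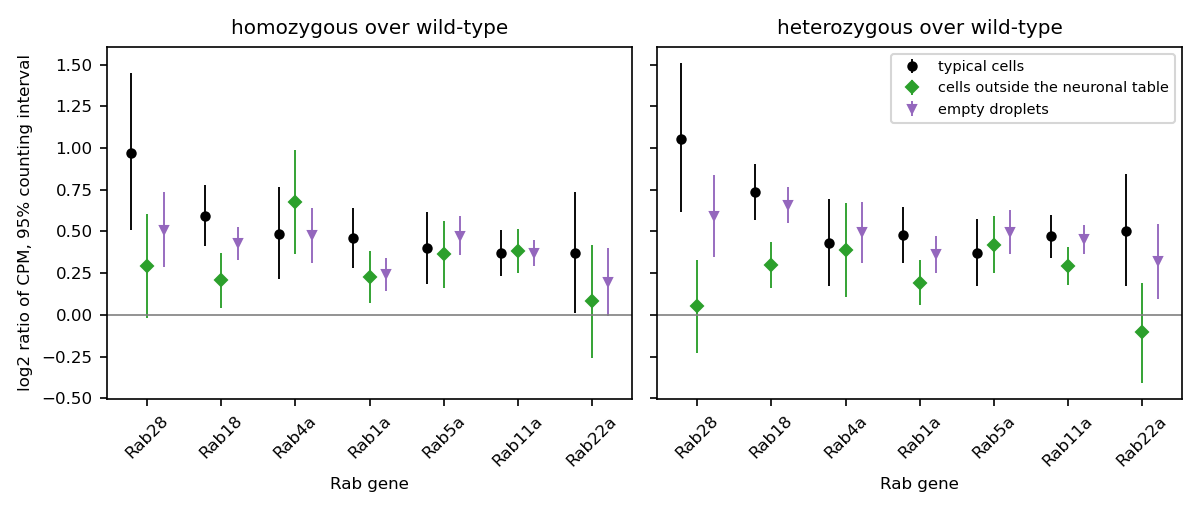
log2 ratio of CPM over wild-type, with 95% counting intervals, for the 7 Rab genes higher in both mutant libraries, in typical cells (circles), cells outside the neuronal table (diamonds) and empty droplets (inverted triangles). Rab5a lies between 0.36 and 0.50 in all 3 kinds of barcode and both panels. Rab28, Rab18, Rab1a and Rab22a lie lower outside the table than in typical cells, Rab1a and Rab22a with homozygous differences whose intervals include 0. The 7 were picked by their ratios in typical cells, so lower ratios elsewhere are partly set by that choice.

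Rab3a and Rab3b had the opposite difference, with intervals below 0 in both mutant libraries (6.90%, against 10.7% of all genes). In cells outside the table Rab3a was at 219, 427 and 378 CPM, so its log2 ratios there were 0.78 (homozygous) and 0.96 (heterozygous), and typical minus outside was −0.55 (−0.69 to −0.41) and −0.66 (−0.78 to −0.53). Rab3b outside was at 27.6, 60.0 and 60.9 CPM, and typical minus outside was −1.40 (−1.77 to −1.04) and −1.11 (−1.44 to −0.78). The makeup of these cells differed between libraries. In them the 9 excitatory markers, all detected, summed to 914, 2622 and 1771 CPM, most of it Nrgn and Cnih2. The 9 inhibitory markers, also all detected, summed to 1537, 1797 and 3111 CPM. The clusters described below were unequally shared, and the inhibitory neuron-like one led by Npy and Sst had 47, 70 and 59 cells. The part of this makeup in the difference was not tested.

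The regulators and effectors of the Rab cycle formed a list of 114 genes, of which 110 were in the table and 23 averaged 20 CPM or more in typical cells. Of these, 2 were more than 25% higher in both mutant libraries (against 11.7% of all genes) and 1 was lower by that factor in both (against 5.68%). The median log2 ratio was −0.02 for homozygous and −0.08 for heterozygous over wild-type, against the 0.08 and 0.06 of all genes.

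Rabif, a small protein that binds GDP-free Rabs, was at 29.7, 45.2 and 39.5 CPM, with log2 ratios of 0.41 (0.08 to 0.75) and 0.61 (0.30 to 0.92). It was among the 4 genes of prenylation and membrane recycling that reached 20 CPM.

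Rabep1, the Rab5 effector rabaptin, went the other way, at 67.0, 46.7 and 51.7 CPM, with log2 ratios of −0.37 (−0.62 to −0.13) and −0.52 (−0.74 to −0.29). Among the Rab3 partners, Rph3a (rabphilin) was at 37.6, 30.9 and 30.5 CPM, and Rims1, of the presynaptic active zone, at 27.5, 24.8 and 21.6 CPM. The log2 ratios of Rph3a were −0.30 (−0.63 to 0.02) and −0.28 (−0.57 to 0.02), with both intervals reaching past 0, and so did those of Rims1, at −0.35 (−0.74 to 0.04) and −0.15 (−0.49 to 0.19). Madd, a Rab3 exchange factor, was at 16.1, 9.41 and 10.4 CPM, below the minimum, with log2 ratios of −0.63 (−1.17 to −0.09) and −0.77 (−1.25 to −0.28). Rab3gap1, of the Rab3 GTPase-activating complex, was at 5.18, 4.13 and 5.93 CPM. The 3 exchange factors that reached 20 CPM had medians of 0.11 and 0.05, and the 9 effectors −0.15 and −0.18. Among these effectors Vps35 had log2 ratios of 0.30 (0.05 to 0.57) and 0.26 (0.02 to 0.51). Rufy3 was at 0.26 (0.10 to 0.42) in homozygous cells, while Rabep1 and Myo5a had intervals below 0 in both libraries. Vps35, Rufy3 and Myo5a were named after their values were seen. Of the 9 effectors 0 were more than 25% higher in either library, against 17.2% and 17.1% of all genes, while 2, Rabep1 and Rims1, were lower by that factor in homozygous cells (against 8.50%) and 1, Rabep1, in heterozygous cells (against 9.50%). The other lower gene in homozygous cells was Tbc1d9, a GTPase-activating protein, at 27.0, 24.0 and 19.3 CPM, which was named after its values were seen.

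The second comparison set cells outside the neuronal table against typical cells of the same library. Of 30 members that averaged 20 CPM or more over both classes, 1 was more than 2-fold higher outside in all 3 libraries (3.33%, against 12.9% of 5184 genes), and 0 were more than 2-fold lower (against 0.0193%). The member was Rab34, which acts at the Golgi, lysosomes and primary cilium. With a mean of 18.0 CPM in typical cells, it entered the 30 only through the class where it is high, so nothing is read from this count. Rab34 was at 73.4, 36.8 and 47.4 CPM outside against 20.98, 16.4 and 16.6 CPM in typical cells, with log2 ratios of 1.81 (1.46 to 2.17), 1.17 (0.84 to 1.49) and 1.51 (1.12 to 1.90).

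At 1.5-fold in all 3 libraries, Rab24 (autophagy) and Rab12 (degradation of recycled receptors) joined Rab34 on the higher side, where 23.9% of all genes stood. Rab34 again entered only through the class where it is high, so nothing is read from that count. Rab24 was at 93.6, 84.3 and 99.2 CPM outside and 51.2, 54.4 and 59.3 CPM in typical cells, and Rab12 at 58.6, 63.2 and 63.1 CPM against 36.2, 41.0 and 40.8 CPM. On the lower side was Rab15, a neuronal endosome member, 3.33% against 0.829%. Rab15 was at 21.4, 45.6 and 30.4 CPM outside and 54.8, 69.7 and 64.2 CPM in typical cells. In all 3 libraries the intervals lay above 0 for 7 of the 30 members (23.3%, against 39.8% of all genes) and below 0 for 3 (10.0%, against 14.5%), which were Rab15, Rab3a and Rab6b. The 7 include Rab34, so nothing is read from the higher count here either. Rab3a had log2 ratios of −1.01 (−1.11 to −0.92), −0.36 (−0.43 to −0.28) and −0.46 (−0.56 to −0.36). These 3 members were lower outside in every library, and most so in the wild-type one.

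**Figure D4:**
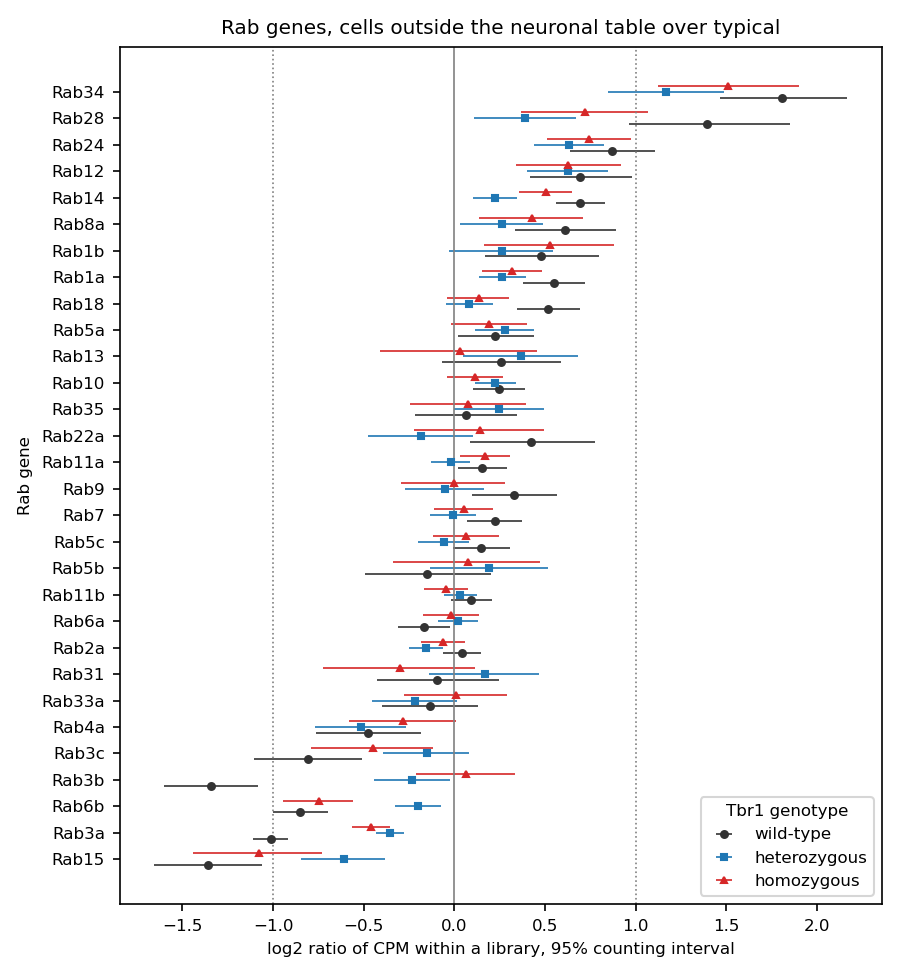
log2 ratio of CPM in cells outside the neuronal table over typical cells, within each library (circles wild-type, squares heterozygous, triangles homozygous), with 95% counting intervals and dotted lines at 2-fold, for 30 Rab genes. Rab34 lies past the right line in all 3 libraries, and Rab15 and Rab3a lie left of 0 in all 3.

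The cells outside the table were grouped into 24 clusters by expression of genes other than Rab genes. A cluster was named only from fixed marker genes, as resembling a cell type, and 7 clusters with 1648 of the 5453 cells were left unnamed. Values in clusters are pooled over libraries as a description, because clusters were unevenly shared among libraries (the inhibitory neuron-like cluster led by Sp8 and Dlx6os1 had 541 wild-type, 78 heterozygous and 83 homozygous cells). For clusters, the typical level is the mean of the 3 libraries.

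Rab33a, a Golgi and vesicle member, stood apart in the oligodendrocyte-lineage-like cluster led by Mbp and Mag, which had 89 cells. It had 200 UMIs there, or 507 CPM (439 to 582), against 53.5 CPM in typical cells, and was the highest Rab of the cluster. By library Rab33a was at 474 CPM in 56 wild-type cells, 753 CPM in 6 heterozygous cells and 504 CPM in 27 homozygous cells. In the other oligodendrocyte-lineage-like cluster, led by Pdgfra, it was at 30.3 CPM (17.3 to 49.2). Rab10, of exocytosis to the plasma membrane, also had its highest cluster level there, at 443 CPM (380 to 514) against 173 CPM in typical cells, and Rab14 was at 385 CPM there.

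The Rab3 genes divided the neuron-like clusters. Rab3a was at 1009 CPM (909 to 1117) in the Cajal-Retzius cell-like cluster and 926 CPM (860 to 996) in the inhibitory neuron-like cluster led by Npy and Sst, with Rbp4 among its 10 leading genes, against 503 CPM in typical cells. It was at 316 CPM in the inhibitory neuron-like cluster led by Sp8 and at 77.1 CPM (64.2 to 91.8) in endothelial-like cells, which should lack it. Rab3b was at 312 CPM (275 to 354) in the Npy and Sst cluster, with 389, 263 and 314 CPM by library (201 CPM without the 5% of cells with the most UMIs), and at 5.45 CPM (0.661 to 19.7) in the Cajal-Retzius-like cluster. Rab3c was at 96.9 CPM in the Npy and Sst cluster, 100.4 CPM in the striatal projection neuron-like cluster and 8.18 CPM in the Cajal-Retzius-like cluster. Rab27b, another vesicle member, was at 66.3 CPM (49.5 to 87.0) in the Npy and Sst cluster, or 41.4 CPM without those cells, against 13.0 CPM in typical cells. In the Cajal-Retzius-like cluster Rab3d was at 57.3 CPM (35.5 to 87.6) against 16.6 CPM in typical cells. Without the 5% of cells with the most UMIs no cluster met the rule for the Cajal-Retzius name.

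**Figure D5:**
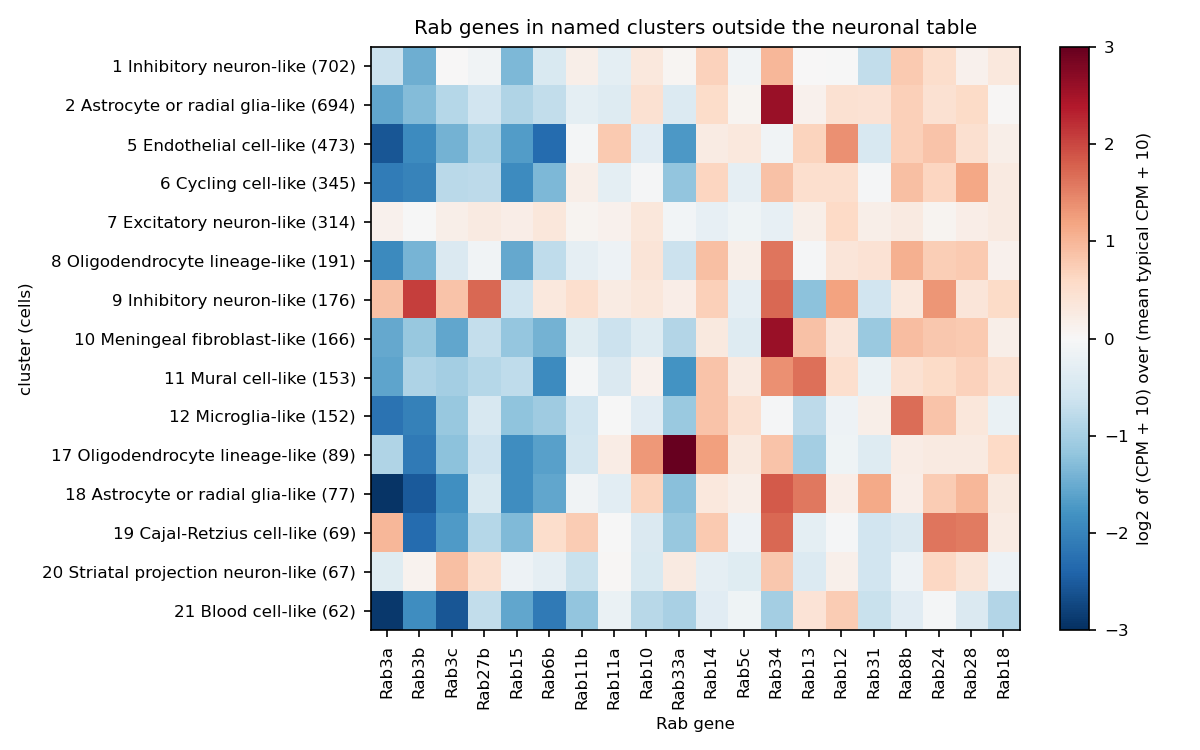
log2 of CPM + 10 over the mean typical CPM + 10 for 20 Rab genes (columns) in the 15 named clusters of at least 50 cells outside the neuronal table (rows, with their cell numbers), red where higher and blue where lower than in typical cells. The strongest red is Rab33a in cluster 17, at 507 CPM, and Rab3a is blue in most of the clusters that are not neuron-like.

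Among non-neuronal clusters, Rab2a led the larger astrocyte or radial glia-like cluster at 315 CPM and the Pdgfra-led cluster at 411 CPM. It also led meningeal fibroblast-like and mural-like cells, at 296 and 317 CPM. Some other non-neuronal clusters had a different leading member. Rab11a was the highest Rab in endothelial-like cells, at 367 CPM (338 to 398) against 210 CPM in typical cells, with 344, 339 and 446 CPM by library. Rab12 had its highest cluster level there, at 118 CPM (102 to 136) against 39.3 CPM. Rab34 was at 159 CPM in the larger astrocyte or radial glia-like cluster (141 to 178) and 159 CPM in meningeal fibroblast-like cells (125 to 198), against 18.0 CPM in typical cells, and its highest level was 163 CPM (124 to 210) in the unnamed cluster led by Meg3 and Snhg11. Rab13, of cell junctions, was at 101 CPM (71.1 to 139) in mural-like cells against 25.6 CPM. Rab31, named here after its values were seen, was at 76.4 CPM (48.4 to 115) in the astrocyte or radial glia-like cluster led by Gfap, with the stress-responsive Fos and Socs3 among its leading genes, against 29.5 CPM. Rab14, of endosome to Golgi transport, was the highest Rab of the microglia-like cluster at 294 CPM (247 to 348).

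Several members at or near 0 in typical cells had UMIs in clusters with immune genes, and these too were named after their values were seen. In microglia-like cells Rab20, a phagosome member, had 9 UMIs, Rab27a 7, Rab7b 7, Rab32 6 and Rab43 6. In an unnamed cluster led by Pf4, Ccl7 and Mrc1, Rab32, of lysosome-related organelles, had 16 UMIs, or 35.5 CPM (20.3 to 57.6), and Rab8b was at 93.1 CPM (67.1 to 126) against 7.32 CPM in typical cells. In an unnamed cluster of 30 cells led by Cd74 and H2-Aa, Rab20 had 8 UMIs, or 94.2 CPM (40.7 to 186). Other such members were highest elsewhere: Rab37 in mural-like cells, with 5 UMIs or 13.7 CPM (4.43 to 31.9), and Rab43 in an unnamed cluster led by Meg3 and Snhg11, with 5 UMIs or 13.8 CPM (4.48 to 32.2). Pooled over libraries, the blood-like cluster had the lowest summed Rab level, 1734 CPM, and the Npy and Sst cluster the highest, 5385 CPM. The Cajal-Retzius-like cluster followed at 5048 CPM. It had 49, 14 and 6 cells by library, against 47, 70 and 59 in the Npy and Sst cluster.

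The third comparison set atypical against typical neuronal cells of the same library, for 12 members that averaged 100 CPM or more. Of these, 0 were past 1.5-fold in all 3 libraries in either direction, against 1.39% of 1222 genes higher and 2.70% lower. Rab3a was lower in atypical cells in each library, at 334, 291 and 333 CPM against 443, 546 and 519 CPM, with log2 ratios of −0.40, −0.91 and −0.64. It was past 1.5-fold in the heterozygous and homozygous libraries but not in wild-type. Rab6a was at 91.7, 125 and 138 CPM against 162, 213 and 190 CPM, with −0.82, −0.77 and −0.46, past that fold in wild-type and heterozygous but not in homozygous cells. These were the 2 members of 29 whose intervals lay below 0 in all 3 libraries (6.90%, against 4.16% of the 4278 genes that averaged 20 CPM or more), and 0 lay above (against 2.59%). Rab3c, a paralog of Rab3a, was at 63.6, 106 and 102 CPM in atypical and 45.5, 52.0 and 50.9 CPM in typical cells, with log2 ratios of 0.48 (−0.04 to 0.97), 1.03 (0.36 to 1.63) and 1.0 (0.62 to 1.37). The paralog Rab3b had log2 ratios of −0.81 (−1.44 to −0.23), 0.32 (−0.42 to 0.97) and −0.16 (−0.67 to 0.32). Rab3d had −1.21, −0.72 and −0.88, on 5, 2 and 7 UMIs in atypical cells, with intervals that include 0. In atypical cells the 9 excitatory markers summed to 1497, 3288 and 2261 CPM, most of it Nrgn and Cnih2, with 0, 2 and 1 of the 9 at 0 UMIs. In the same cells 5 striatal projection neuron markers summed to 247, 393 and 440 CPM, against 29.2, 28.4 and 44.8 CPM in typical cells. The part of such cells in the Rab3 values was not tested.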

How the data were processed

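Single-cell 3′ RNA-seq libraries of sorted mPFC cells were analyzed, 1 for each Tbr1 genotype. Raw UMI counts in the deposited tables came from the authors' run of Cell Ranger 2.0.1 (mm10), after which the authors filtered cells on mitochondrial share, UMIs and genes. These counts equaled the library matrices in every entry of the 14933 genes compared. A further neuronal table holds, despite its name, the natural log of 1 plus scaled UMIs as deposited, and only its 7174 gene names and its cell list were used. A centered table of the authors was not used. Strand and annotation settings are not given in the sources used here.

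Raw UMIs were summed per library and cell class and divided by all UMIs of that class to give CPM. Sums carry exact Poisson intervals and ratios exact conditional binomial (Clopper-Pearson) intervals at 95%. Differences of 2 log2 ratios carry a normal interval from their counts. Genes past a fold were counted among those averaging 20 CPM or more (100 CPM for atypical cells). Intervals cover counting error only. Ratios were tested on simulated data. Alternatives were other denominators, including TMM (edgeR 4.0.16) and DESeq2 1.42.0 size factors, used for scaling only, other cells, filters and folds, thinned cells, subtraction of free RNA and leaving out libraries.

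Cells outside the neuronal table were clustered without Rab genes, with 2000 variable genes, 30 principal components, 20 neighbors and Leiden (leidenalg 0.10.2) at resolution 0.8. A cluster was named where its top 10 genes held more markers of 1 type than of any other, whatever the depth of its cells. A marker counted as detected at 20 CPM or more and, with 20 CPM added to each side, 2-fold over the other clustered cells. At least 3 markers of the type, and no less than 50% of them, had to be so detected. This threshold was set after seeing the clusters. No doublet caller was run, and leaving out the 5% of cells with the most UMIs was tried in its place. Sequences were from RefSeq (GRCm38.p6). Genes were named by rule: the 5 highest members, those past a fold in both mutant libraries or in all 3 class contrasts, the Rab genes the study lists, their paralogs, the highest member of named clusters and a few Rab cycle genes, not all of which are reported here. Rab7, Rab8b, Rab12, Rab13, Rab15, Rab20, Rab24, Rab27a, Rab27b, Rab31, Rab32, Rab37 and Rab43 were named after their values were seen. The members and lists were chosen with earlier results of these data known.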

Additional observations from a re-analysis of the deposited data

How the results depend on the processing

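No paired analysis was possible because there was 1 library per genotype and the groups share a single replicate number, and for the same reason no library could be left out of a genotype ratio. Scaling by TMM or DESeq2 size factors gave 7 and 10 higher members, as reported, and left the medians at 0.21 and 0.22. Of all genes 16.2% and 17.5% were then higher with TMM and 15.7% and 17.4% with DESeq2, and their medians were 0.07. With mean raw UMIs per cell, where homozygous cells are shallower, the homozygous median turned to −0.20 and the family sum to −0.21, Rab22a, Rab11a and Rab5a turned to −0.050, −0.051 and −0.021, 1 member was higher (against 1.01% of all genes) and 10 lower, and 18 were lower in homozygous than heterozygous cells. That scaling shifts all genes alike: their homozygous median was −0.34 and 52.4% of them were lower, and 49.7% were lower in homozygous than heterozygous cells. The heterozygous values became 0.13 for the median, 0.17 for the sum, 6 higher and 1 lower (against 10.4% and 15.2% of all genes), and the Rab cycle counts 0 higher and 17 lower (homozygous) and 3 lower (heterozygous). With UMIs of the neuronal genes as denominator, the homozygous sum was 0.15, 1 member was lower in each mutant library (against 11.7% and 11.01% of all genes), and 5 Rab cycle genes were lower in the homozygous one. Under that denominator 17.2% and 34.5% of the members were higher in the homozygous and heterozygous libraries (against 11.8% and 15.2% of all genes). The share of the empty-droplet profile, 38.8% (wild-type, which may be too large), 14.5% (heterozygous) and 20.3% (homozygous) of UMIs, was set by hemoglobin transcripts, and blood markers were highest in wild-type typical cells (345 CPM, against 44.6 and 85.8 CPM). Subtracting it gave a homozygous median of 0.082, sums of 0.15 and 0.18, 9 and 8 higher members (against 19.3% and 17.3% of all genes), 1 and 2 lower members (against 13.5% and 14.9%), 6 and 8 lower Rab cycle genes and 1 member lower in atypical cells (against 5.04%). Under it Rab3a was at 0.06 and 0.11, while Rab28 was at 1.40 and 1.49 and Rab18 at 0.68 and 0.80. Without a filter, 14 and 18 members were higher (against 22.6% and 21.6% of genes seen in both libraries) and 2 lower in each mutant library (against 24.8% and 26.5%), 3 higher and 4 lower between mutants (against 19.0% and 14.97%), Rab cycle counts were 21 and 21 higher and 29 and 26 lower, 4 members were higher outside the table (against 20.5%), and 1 was higher and 2 lower in atypical cells (against 3.01% and 1.45%). Among genes averaging 50 CPM or more, the heterozygous median was 0.31 (0.06 for all genes), and the homozygous Rab cycle counts were 1 higher and 1 lower, with 1 higher in the heterozygous library, where 16.0% and 7.60% (homozygous) and 16.3% (heterozygous) of all genes stood. At 1.5-fold, 2 members were higher in each mutant library (against 2.96% and 3.59%), and 3 were higher and 1 lower in cells outside the neuronal table (against 23.9% and 0.829%). The higher counts include Rab28 and Rab34, and nothing is read from them. Thinned cells gave 1 lower member (homozygous, against 9.06%) and 2 lower Rab cycle genes (heterozygous, against 10.0%). The top 5% of cells left out gave 2 of the latter (against 9.69%), and adding atypical cells gave 1 lower member (heterozygous, against 10.8%). With the top 5% of cells left out, 27.6% and 44.8% of the members were higher in the homozygous and heterozygous libraries (against 17.1% and 17.4% of all genes). Leaving Rab28 out of the counts, or the highest member out of a group sum, was chosen after seeing the data. The homozygous sums then turned to −0.027 for secretory vesicles (without Rab3a) and −0.085 for late endosomes (without Rab7). The causes were not tested. Leaving out 1 library moved the lower count outside the table between 0 and 1 (1 without the heterozygous library) and that in atypical cells between 0 and 1 (1 without the wild-type or the homozygous library); the higher counts stayed at 1 and 0. In clusters, leaving out the top 5% of cells gave Rab3b 201 CPM, Rab27b 41.4 CPM, Rab33a 434 CPM, Rab10 372 CPM and Rab12 101 CPM in the clusters named for them, and no cluster then met the naming rule for Cajal-Retzius cells. At doubled resolution Rab11a was at 400.5 CPM and Rab12 at 146 CPM in endothelial-like cells. Of 464 values of single members under 8 alternatives, 428 stayed within the counting interval and 33 lay outside it (26 on UMIs per cell and 7 with the profile subtracted). The remaining 3, past 25% in the main analysis, changed sign: Rab22a, Rab11a and Rab5a in homozygous cells on UMIs per cell. Members short of 25% that changed sign, such as Rab3a and Rab11b there, are counted in the 33 or the 428. Of 193 values that answer a comparison, 134 held, 57 moved and 2 changed sign. Depth limits the 26 members below 20 CPM most.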

Other observations

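Rab17, Rab19, Rab25 and Rab44 have rows in the library matrices but none in the table of filtered cells. Over all barcodes, Rab17 had 7 (wild-type), 0 (heterozygous) and 1 (homozygous) UMIs, and Rab19 had 6, 1 and 2. Rab25, known from epithelial cells, had 2, 0 and 1, and Rab44 had 1, 2 and 1.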
